A study of Mus musculus with 6 samples.

Results

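The 10 genes described here, Kdr, Flt1, Emcn, Plvap, Pecam1, Icam1, Icam2, Sele, Selp and Ackr1, encode surface proteins of vascular endothelium and were taken by name from the 28208 genes listed for all 6 kidneys. They were read as raw UMIs (unique molecular identifiers, each counting 1 captured RNA molecule) and given per 1000000 UMIs of a cell class in a kidney (CPM). Endothelium was every cell with a UMI of at least 2 of Cdh5, Egfl7, Kdr and Emcn and none of Ptprc, the pan-leukocyte gene. It held 1057 of the 45667 cells kept. Kdr and Emcn belong to that gate, so their presence in these cells follows from the rule.

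Single cells from whole kidneys of 3 groups, with 2 kidneys in each, had been profiled on the 10x Genomics droplet platform. Naive kidneys were untransplanted, from male C57BL/6 (B6, I-Ab) mice of 10 to 12 weeks. Rejecting kidneys were BALB/c (I-Ad) grafts, labelled with an age of 6 to 7 weeks, retrieved on day 15 from male B6 recipients that had lost both own kidneys. Tolerized kidneys were such grafts in recipients that were also infused with BALB/c splenocytes treated with ethylenecarbodiimide (ECDI), a crosslinker that leaves the cells dying, before and after the operation. Strain, age, surgery and the gene annotation (28692 genes listed for naive kidneys, 31053 for grafts) all changed with transplantation, so their parts in any difference between naive kidneys and grafts cannot be told apart. All 6683 and 5608 kept naive cells held at least 1000 UMIs, unlike those of grafts, and few barcodes were shared between naive kidneys and grafts. Any difference in library preparation or cell calling behind this cannot be told apart from transplantation either. A graft also holds recipient cells. The study names 2 experiments, but the labels tie no kidney to either of them. With 2 kidneys in each group, p-values measure the spread between these samples only.

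Endothelium lines every vessel of the kidney, from the fenestrated capillaries of the glomerulus to the peritubular network and the veins. Kdr (VEGFR2) and Flt1 (VEGFR1) bind VEGF, which podocytes and tubules supply to the capillaries beside them. When cytokines act on a vessel, leukocytes roll on E-selectin (Sele) and P-selectin (Selp), stop as their integrins bind ICAM-1 (Icam1), and cross junctions lined with PECAM-1 (Pecam1). ICAM-2 (Icam2) is present on resting endothelium, PLVAP (Plvap) forms the diaphragms of fenestrae and caveolae, endomucin (Emcn) is a sialomucin that limits leukocyte contact, and ACKR1 (Ackr1) holds chemokines on venules without signalling.

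Stretches before the start sites of Icam1 and Sele are shown, since both were higher in endothelium of both kinds of graft than of naive kidneys. Sele had 0 and 1 UMI in naive endothelium and entered the test only through the grafts, so it had to differ. Cytokine-driven transcription of both is known to run through NF-kB. Each stretch is the 250 bases before the RefSeq start site on the plus strand of GRCm38.p6. Of the 10 genes, 7 had such an entry.
Icam1, chr9:21015690-21015939: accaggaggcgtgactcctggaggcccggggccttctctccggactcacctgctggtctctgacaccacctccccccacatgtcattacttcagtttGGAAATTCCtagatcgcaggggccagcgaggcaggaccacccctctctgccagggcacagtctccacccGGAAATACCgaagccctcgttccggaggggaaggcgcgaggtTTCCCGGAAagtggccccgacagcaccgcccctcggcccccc
Sele, chr1:164047984-164048233: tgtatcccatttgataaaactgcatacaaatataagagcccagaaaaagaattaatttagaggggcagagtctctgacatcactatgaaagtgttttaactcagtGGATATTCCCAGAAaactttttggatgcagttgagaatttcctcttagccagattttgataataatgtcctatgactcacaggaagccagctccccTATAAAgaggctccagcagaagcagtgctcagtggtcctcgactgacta
Capitals mark matches on either strand to GGNNNTTCC, the loose form of an NF-kB site, to TTCNNNGAA, the gamma-activated site bound by STAT dimers, and to TATAAA. The loose NF-kB letters were chosen after these sequences had been read, and 15.7% of the 32851 promoter windows of that length hold them. In Icam1 they matched GGAAATTCC at -153 to -145 and, on the minus strand, GGAAATACC at -84 to -76, counted back from the start site. They also matched, on the minus strand, GGAAAGGCC of Selp at -14 to -6 and GGAAGCCCC of Ackr1 at -131 to -123, so 4 of the 7 genes held them. In Sele they matched GGATATTCC at -145 to -137, and the gamma-activated letters overlapped it as TTCCCAGAA at -140 to -132. The gamma-activated letters also matched TTCCCGGAA of Icam1 at -42 to -34 and are in 7.02% of all windows. TATAAA stood at -49 to -44 of Sele and at -31 to -26 of Flt1, against 12.4% of windows. The stricter NF-kB consensus, in 3.90% of windows, matched Kdr at -74 to -65 and Flt1 at -92 to -83 and no other of the 7 genes. A match is a run of letters and no measure of binding.

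The 6 libraries held 8532 to 13378 barcodes each, and the median kept cell had 2542 to 7312 UMIs. The naive kidneys shared 111 barcodes, pairs of grafts 18 to 35, and a naive kidney and a graft at most 4, with 0 shared among endothelial cells. All 10 of the check genes Tek, Tie1, Eng, Esam, Cldn5, Ramp2, Robo4, Nos3, Erg and Sox18 were detected in the endothelium of every kidney and summed to 3006 to 3700 CPM. Endothelium summed to 753564 and 877184 UMIs in naive kidneys, 636206 and 331568 in the rejecting pair and 1745412 and 1601166 in the tolerized pair, so 1 UMI weighed most in rejecting kidney 2. Its median cell held 2096.5 and 2542 UMIs in naive kidneys and 4835 to 6744 in grafts. Markers of other cells were also present. The 8 distal nephron markers summed to 828 and 502 CPM in naive endothelium, 50.3 and 27.1 in the rejecting pair and 988 and 1958 in the tolerized pair. The 5 proximal tubule markers summed to 654 and 679 CPM in naive, 113 and 27.1 in the rejecting pair and 492 and 302 in the tolerized pair. At least 2 proximal or 2 distal markers were held by 80 of 262 and 109 of 235 naive endothelial cells. In the rejecting pair 8 of 95 and 2 of 43 held them, and in the tolerized pair 51 of 208 and 143 of 214. Alternative fits left these cells out. The 6 macrophage or monocyte markers summed to 248 CPM in rejecting kidney 1 and to 43.8 to 67.5 in the other 5 kidneys. The 5 T cell markers summed to 1.33 and 1.14 CPM in naive, 83.3 and 27.1 in the rejecting pair and 7.45 and 4.37 in the tolerized pair.

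Endothelium was a smaller share of rejecting kidneys than of the others. It made up 3.92% and 4.19% of kept cells in naive kidneys (262 and 235 cells), 0.906% and 0.571% in rejecting kidneys (95 and 43 cells) and 2.32% and 3.35% in tolerized kidneys (208 and 214 cells). The groups did not overlap, with means of 4.06% ± 0.191, 0.739% ± 0.237 and 2.83% ± 0.728 (SD, n = 2). Each pair of groups gave an exact permutation p of 0.333 (2-sided), the smallest that 2 kidneys against 2 allow. The order of tolerized and naive kidneys depended on what was counted. With Cdh5 and Egfl7 both required the tolerized shares of 1.87% and 2.75% overlapped the naive shares of 2.59% and 2.55%, and among cells without Ptprc the tolerized mean was higher than the naive one by 0.469 percentage points. Among cells without Ptprc the rejecting shares of 2.09% and 1.79% still lay below the naive shares of 4.02% and 4.32%.

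The UMIs of most members lay in endothelium in naive kidneys, and less so in grafts. In naive kidneys endothelium held 89.8% or more of all UMIs of Kdr, Flt1, Emcn, Plvap, Pecam1 and Icam2, and 28.1% of those of Icam1. Kdr and Emcn are gate genes, and proximal tubule and distal nephron cells had to hold none of the gate genes. Where the UMIs of Kdr and Emcn lay thus follows in part from the rule. In grafts it held 77.4% to 88.4% of the Plvap UMIs and 81.5% to 95.7% of the Emcn UMIs of each kidney. Its part of the Kdr UMIs was 73.7% and 56.2% in the rejecting pair and 85.7% and 91.9% in the tolerized pair. For Flt1 it was 37.1% and 26.9% for the rejecting pair against 52.6% and 77.3% for the tolerized pair. For Pecam1 and Icam2 it ran from 38.3% to 52.9% in the rejecting pair and from 66.5% to 78.8% in the tolerized pair. These 4 genes thus had a smaller part of their UMIs in endothelium in both rejecting kidneys than in both tolerized ones. Endothelium itself ran the same way, at 0.906% and 0.571% of kept cells in the rejecting pair and 2.32% and 3.35% in the tolerized pair. The order is therefore not read as a result about these genes. For Icam1 the part was 2.23% and 1.43% for the rejecting pair against 6.36% and 7.66% for the tolerized pair. Leukocytes held 81.7% and 83.1% of the Icam1 UMIs in the rejecting pair and 72.8% and 52.2% in the tolerized pair. Of the Flt1 UMIs they held 51.6% and 70.1% for the rejecting pair against 41.0% and 18.4% for the tolerized pair. Such shares also change with the number of cells in each class and their RNA. Leukocytes made up 2.36% and 3.10% of kept cells in naive kidneys, 56.3% and 68.0% in the rejecting pair and 45.6% and 33.0% in the tolerized pair. The median endothelial cell held more UMIs in grafts than in naive kidneys, as given above. The part of either in these shares was not tested.

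**Figure D1:**
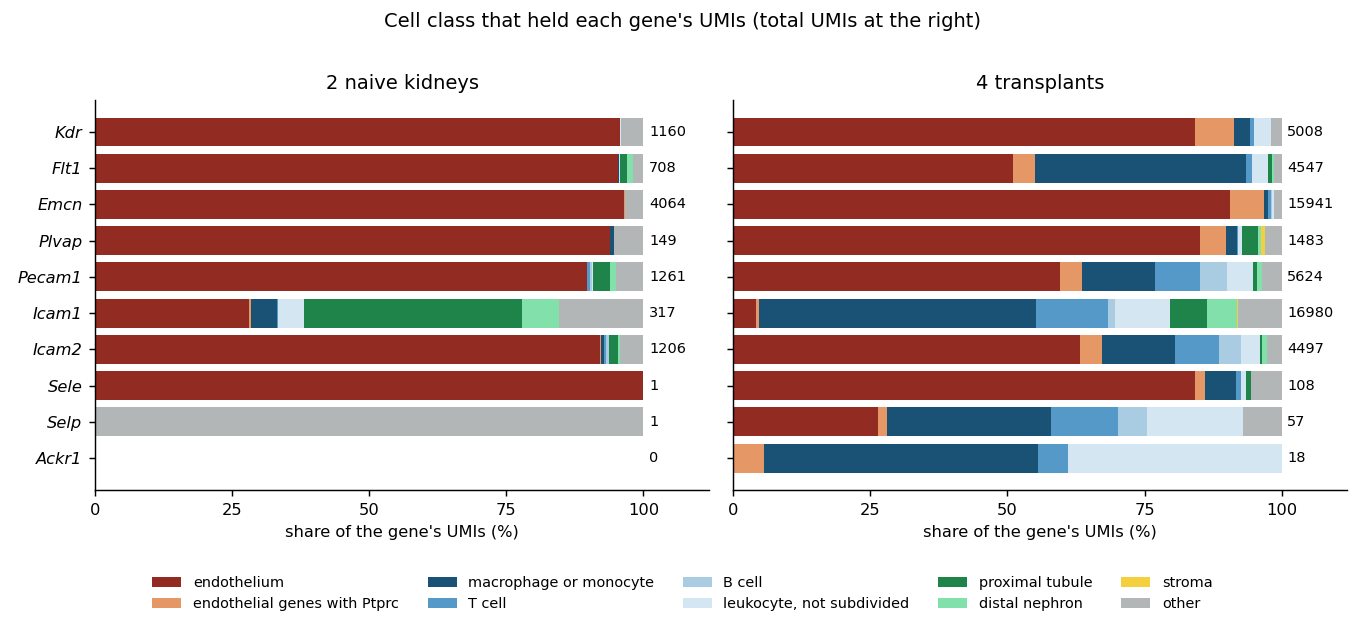
Share of each gene's UMIs (x axis, %) held by each cell class in the 2 naive kidneys and in the 4 grafts pooled, with the gene's total UMIs at the right of each bar. Pooling joins rejecting and tolerized kidneys, whose shares differ, and leukocyte classes hold 74.9% of Icam1 and 42.4% of Flt1 UMIs in the pooled grafts. Kdr and Emcn are gate genes that tubule cells had to lack, so their bars follow in part from the rule.

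The level in CPM was next compared between classes within the same kidneys, for the members that are not gate genes and passed the filter on low counts. All 5 of these, Flt1, Plvap, Pecam1, Icam1 and Icam2, were higher in endothelium than in proximal tubule cells (34.2% of 11010 genes tested were called higher in edgeR's quasi-likelihood test). Of these, Flt1, Plvap, Pecam1 and Icam2 lay at 0 to 2.22 CPM in proximal tubule cells, passed the filter only through endothelium and had to differ, so no fold is read from them. The Icam1 difference was 2.63 on the log2 scale (SE 0.151). Against leukocytes, compared in the grafts only, 5 of 6 tested members were higher in endothelium, namely Flt1, Plvap, Pecam1, Icam2 and Sele (20.3% of all genes tested were called higher). Plvap, with 5 to 15 leukocyte UMIs a graft, and Sele, with 1 to 5, again passed the filter only through endothelium and had to differ. The log2 difference was 5.49 (SE 0.139) for Icam2, 5.32 (SE 0.176) for Pecam1 and 4.69 (SE 0.176) for Flt1. Icam1 was the exception, with a log2 difference of 0.22 (SE 0.129, adjusted p = 0.18), so its level in graft endothelium and graft leukocytes was not told apart by the test. With doublets kept, Icam1 was called higher in endothelium (0.42, adjusted p = 0.0201), and so it was with the gate of Cdh5 and Egfl7 (0.38, adjusted p = 0.0484).

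No change of the VEGF receptors between groups passed the test. Kdr measured 648 and 710 CPM in naive endothelium, 935 and 507 in the rejecting pair and 1044 and 1019 in the tolerized pair. The 2 rejecting kidneys thus lay on either side of the naive pair, and both tolerized kidneys lay above every other kidney. No Kdr comparison passed the test, with log2 fold changes of 0.05 (SE 0.296, adjusted p = 0.922) for rejecting and 0.59 (SE 0.294, adjusted p = 0.227) for tolerized against naive, and 0.54 (SE 0.295, adjusted p = 0.6) for tolerized against rejecting. With the gate of Cdh5 and Egfl7, which does not use Kdr, the tolerized values were 1196 and 1157 CPM and the naive ones 670 and 681 (log2 fold change 0.79, adjusted p = 0.115). Flt1, the decoy-like receptor with weak kinase activity, measured 398 and 428 CPM in naive, 622 and 558 in the rejecting pair and 508 and 533 in the tolerized pair. Its groups did not overlap, but the fold changes of 0.48 (SE 0.227, adjusted p = 0.177) and 0.32 (SE 0.224, adjusted p = 0.388) against naive did not pass. Outside the vessels Flt1 was measured in the macrophage or monocyte class of every graft, at 31.3 and 28.7 CPM for the rejecting pair and 31.9 and 28.4 CPM for the tolerized pair. The naive kidneys gave 0 and 1 Flt1 UMI in that small class.

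**Figure D2:**
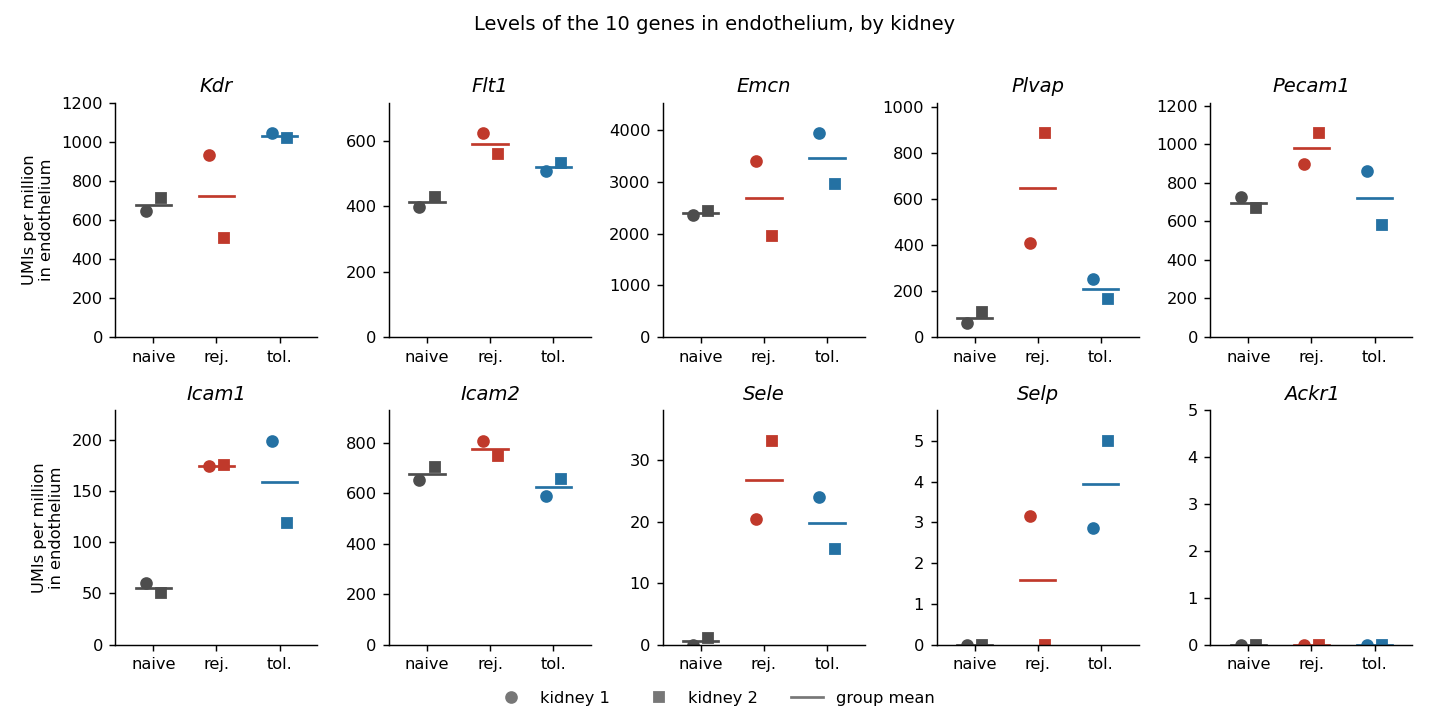
Level in CPM of endothelium (y axis, linear and starting at 0) for each of the 10 genes in each kidney, with circles for kidney 1, squares for kidney 2 and a line at the group mean. The graft values of Plvap, Icam1 and Sele lie above both naive kidneys, and Ackr1 is at 0 throughout.

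Emcn, the sialomucin, did not pass in any comparison of groups. It measured 2361 and 2444 CPM in naive, 3411 and 1957 in the rejecting pair and 3939 and 2968 in the tolerized pair. As with Kdr, the rejecting pair straddled the naive pair and the tolerized pair lay above it. The tolerized against naive fold change was 0.51 on the log2 scale (SE 0.302, adjusted p = 0.313), and 0.81 (adjusted p = 0.116) with the gate of Cdh5 and Egfl7.

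Plvap (ENSMUSG00000034845, chr8:71497765-71511752 on GRCm38) differed most between rejecting and naive endothelium among the members with UMIs in every kidney. It measured 59.7 and 108 CPM in naive, 410 and 887 in the rejecting pair and 253 and 166 in the tolerized pair. Every graft lay above both naive kidneys, and both rejecting kidneys lay above both tolerized ones. Plvap was 1 of 3 members called in rejecting against naive endothelium, with Icam1 and Sele, of 8 tested. In that edgeR test 15.8% of 8641 genes were called and 7.86% were called higher. Sele, with 0 and 1 naive UMI, entered the test only through the grafts and had to differ. The log2 fold change of Plvap was 2.88 (SE 0.421, adjusted p = 0.00226), and leaving out 1 kidney at a time kept it between 2.25 and 3.41. Against naive, tolerized endothelium gave 1.29 (SE 0.405, adjusted p = 0.0723), which did not pass. That call depended on the setting, since it was made with the replicate block (adjusted p = 0.0375), with the gate of Cdh5 and Egfl7 (adjusted p = 0.0167), with only these groups in the fit (adjusted p = 0.026) and without tolerized kidney 2 (adjusted p = 0.0329), without rejecting kidney 1 (adjusted p = 0.0282) or without rejecting kidney 2 (adjusted p = 0.0251). It was not made without cells that held tubule markers (1.02, adjusted p = 0.217). Tolerized against rejecting gave -1.59 (SE 0.388, adjusted p = 0.111). DESeq2 called it (adjusted p = 0.0217), as did edgeR without rejecting kidney 1 (-2.03, adjusted p = 0.037) or without tolerized kidney 1 (-1.86, adjusted p = 0.0322), while without rejecting kidney 2 the difference was -0.96 (adjusted p = 0.391).

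Plvap overlaps Gtpbp3 and Icam1 overlaps Gm47079, both on the opposite strand, and reads of such partners can be told apart only where counting used strand. The Plvap UMIs were spread unevenly over cells. In naive kidneys 29 of 262 and 37 of 235 endothelial cells held any, in rejecting kidneys 33 of 95 and 24 of 43, and in tolerized kidneys 56 of 208 and 42 of 214. A single cell carried 68 of the 261 UMIs of rejecting kidney 1 and another carried 69 of the 266 UMIs of tolerized kidney 2. With each cell thinned to 1000 UMIs the share of cells with Plvap was 3.82% and 7.23% in naive, 15.6% and 42.9% in the rejecting pair and 16.5% and 8.21% in the tolerized pair, so the grafts stayed above the naive kidneys at equal depth, with tolerized kidney 2 close to naive kidney 2. In proximal tubule cells, which should lack the gene, the thinned share was at most 0.113%. Without thinning these cells held 0 and 0 Plvap UMIs in naive kidneys, 5 and 7 in the rejecting pair and 24 and 5 in the tolerized pair. Plvap was called higher there in both kinds of graft (adjusted p = 0.0243 and 0.0249), but it entered that test only through the grafts and had to differ. The rejecting call was lost without any 1 kidney but tolerized kidney 2 (adjusted p = 0.051 to 0.113), and the tolerized call without either naive or either tolerized kidney (adjusted p = 0.0563 to 0.142). The log2 change from naive in endothelium minus that in proximal tubule was -2.59 (SE 1.10, adjusted p = 0.254) for rejecting and -4.05 (SE 1.07, adjusted p = 0.0735) for tolerized kidneys, and rests on the naive counts of 0.

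Ehd3, which is known to mark glomerular capillaries, divided the endothelium further. A UMI of Ehd3 was found in 169 of the 262 and 155 of the 235 endothelial cells of naive kidneys, 60 of 95 and 20 of 43 in rejecting and 135 of 208 and 163 of 214 in tolerized kidneys. Kdr, Emcn and Icam1 were higher in cells with Ehd3 in 6 of 6 kidneys, and Plvap was higher in cells without it in 5 of 6. Plvap in cells with Ehd3 measured 32.8 and 47.7 CPM in naive, 425 and 442 in the rejecting pair and 111 and 56.7 in the tolerized pair. In cells without Ehd3 it measured 89.6 and 182 in naive, 374 and 1241 in the rejecting pair and 581 and 493 in the tolerized pair. By these levels the rejecting kidneys stood apart from the tolerized ones among cells with Ehd3 and overlapped them among cells without it. The levels rest on few cells. Among cells with Ehd3, Plvap was found in 14 of 60 and 5 of 20 in rejecting kidneys. In tolerized kidneys it was found in 26 of 135 and 15 of 163 such cells. These are descriptions with no test. The median depth of cells with Ehd3 was 1984 to 7436 UMIs across kidneys and that of cells without it 2617 to 6083, and the part of depth was not tested.

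**Figure D3:**
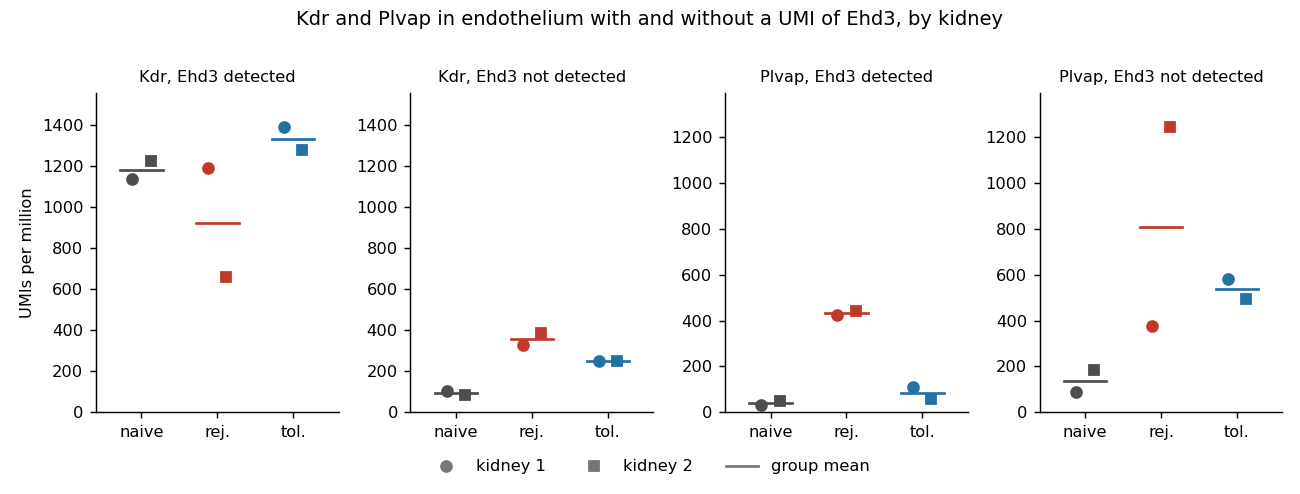
CPM (y axis) of Kdr and Plvap in endothelial cells with and without a UMI of Ehd3, by kidney, with a line at each group mean. Among cells with Ehd3 the rejecting kidneys reach 425 and 442 for Plvap, while the other 4 kidneys stay at 111 or below. The rejecting values rest on 14 and 5 cells with Plvap.

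No change of Pecam1 or Icam2, the constitutive adhesion proteins, passed the test. Pecam1 measured 726 and 667 CPM in naive, 899 and 1056 in the rejecting pair and 858 and 583 in the tolerized pair, and the rejecting kidneys were the highest of the 6. The log2 fold change of rejecting against naive was 0.45 (SE 0.251, adjusted p = 0.246), and that of tolerized against naive was 0.03 (SE 0.248, adjusted p = 0.95). Icam2 measured 652 and 706 in naive, 808 and 748 in the rejecting pair and 588 and 659 in the tolerized pair. Its log2 fold changes were 0.16 (SE 0.232, adjusted p = 0.682) and -0.13 (SE 0.229, adjusted p = 0.759) against naive. The rejecting values of both genes lay above the naive ones, by less than the test could call.

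Icam1 (ENSMUSG00000037405, chr9:21015985-21028817 on GRCm38), the integrin ligand whose upstream stretch is given above, was higher in grafts than in naive kidneys in endothelium and in proximal tubule cells. In endothelium it measured 59.7 and 50.2 CPM in naive, 174 and 175 in the rejecting pair and 199 and 119 in the tolerized pair. The grafts did not overlap the naive kidneys, and the tolerized pair enclosed the rejecting pair. Both comparisons with naive passed, at 1.63 (SE 0.289, adjusted p = 0.00548) for rejecting and 1.51 (SE 0.276, adjusted p = 0.00913) for tolerized endothelium. Icam1 and Sele were the 2 of 8 tested members called in tolerized against naive (9.88% of genes tested were called and 5.72% were called higher). Sele entered that test only through the grafts and had to differ. Both Icam1 calls weakened without either naive kidney, and the rejecting call was kept without naive kidney 1. Without naive kidney 2 the adjusted p of Icam1 was 0.0713 for rejecting and 0.13 for tolerized, and without naive kidney 1 it was 0.0479 and 0.0779. Tolerized and rejecting endothelium differed by -0.12 (SE 0.262, adjusted p = 0.939).

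**Figure D4:**
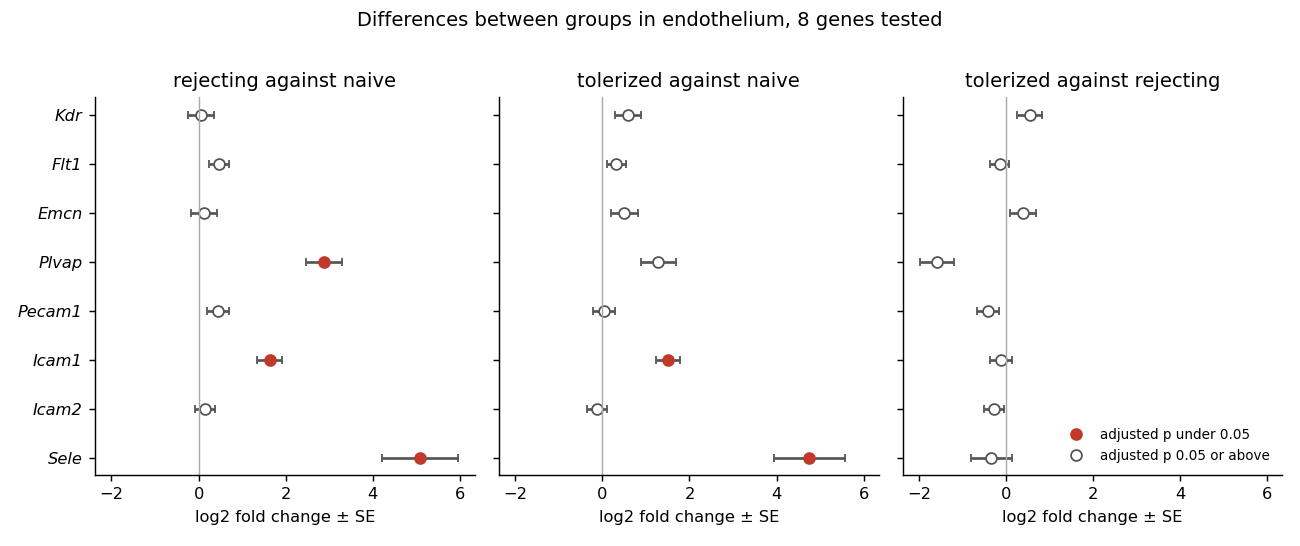
Log2 fold change with its standard error (x axis) for the 8 members tested in endothelium, in the 3 comparisons of groups, with filled points for an adjusted p under 0.05. Plvap, Icam1 and Sele are filled in the first panel, Icam1 and Sele in the second and none in the third, and the Sele points against naive are fitted values where the naive kidneys had 0 and 1 UMI.

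Outside endothelium the same gene was measured across the tubule and the infiltrate. Proximal tubule cells held 4.76 and 4.18 CPM in naive, 30.6 and 25.6 in the rejecting pair and 20.7 and 11.6 in the tolerized pair, in which the 3 groups did not overlap. The log2 fold change was 2.23 (SE 0.273, adjusted p = 0.00085) for rejecting and 1.62 (SE 0.27, adjusted p = 0.00433) for tolerized against naive (35.1% and 25.6% of 12142 genes were called). Tolerized against rejecting gave -0.61 (SE 0.248, adjusted p = 0.574), a comparison in which edgeR called 0% of genes, with 1002 at an unadjusted p under 0.05 and 102 called by DESeq2. Leukocyte markers, like Icam1, were higher in the proximal tubule cells of every graft than in those of both naive kidneys. There the 6 macrophage or monocyte markers, all detected in every kidney, summed to 17.1 and 48.6 CPM in naive, 320 and 120 in the rejecting pair and 63.7 and 80.1 in the tolerized pair. The 5 T cell markers, of which 4 or 5 were detected, summed to 0.662 and 3.38 CPM in naive, 96.3 and 16.1 in the rejecting pair and 9.89 and 16.8 in the tolerized pair. Both sums ran the same way as Icam1 within the rejecting pair and the other way within the naive and the tolerized pair. The part of these markers in the tubular Icam1 values was not tested. Distal nephron cells held 1.68 and 2.84 CPM in naive, 50.4 and 43.3 in the rejecting pair and 19.1 and 31.9 in the tolerized pair. Macrophages or monocytes held 43.8 and 35.0 CPM in naive kidneys (6 and 9 UMIs), 181 and 146 in the rejecting pair and 143 and 109 in the tolerized pair, and graft T cells held 113 and 88.6 against 72.7 and 42.6. In both of these classes the rejecting kidneys were above the tolerized ones. The 17 and 21 naive T cells held 0 and 1 Icam1 UMI, where 3 UMIs would weigh 84.5 and 60.3 CPM, so they give no level to set beside the grafts, nor do the 13 and 18 naive B cells. Over all leukocytes the difference was -0.56 (SE 0.283, adjusted p = 0.639), in a comparison where 0 of 14210 genes passed edgeR, 1211 had an unadjusted p under 0.05 and DESeq2 called 213. The log2 change of Icam1 from naive to rejecting kidneys in endothelium minus that in proximal tubule was -0.75 (SE 0.285), a difference of differences that did not pass (adjusted p = 0.175, with 4.44% of 12712 genes called). From naive to tolerized it was -0.09 (SE 0.267, adjusted p = 0.934). In endothelium the summed T cell and macrophage markers given above were highest in rejecting kidney 1, and their part in the Icam1 values was not tested.

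**Figure D5:**
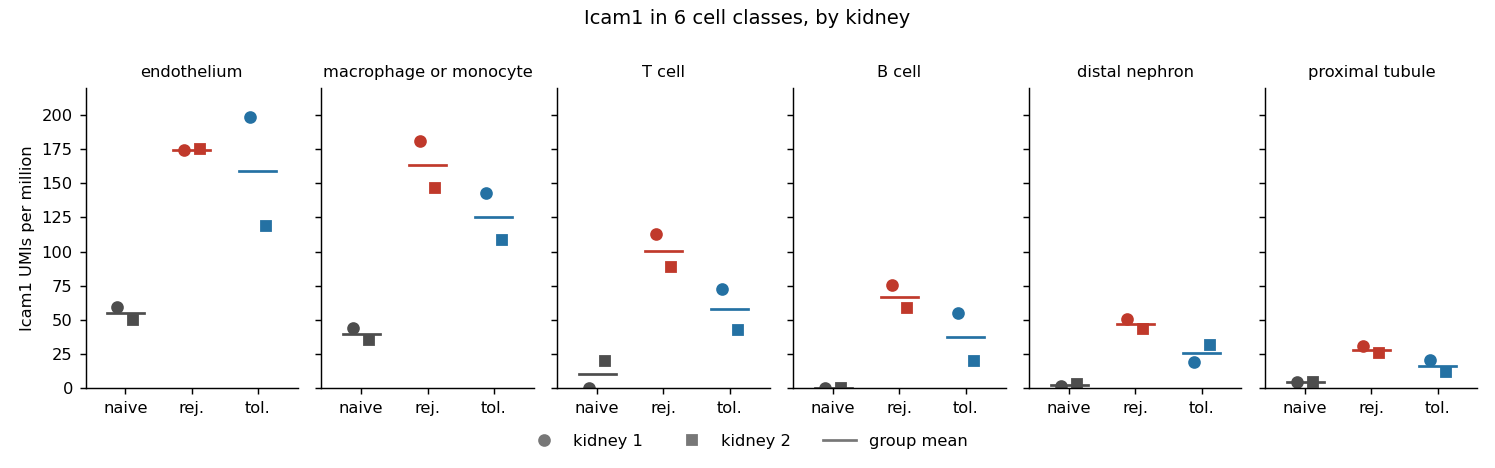
Icam1 CPM (y axis, common to the 6 panels) in each kidney for 6 cell classes, with a line at each group mean. Rejecting kidneys lie above tolerized kidneys in the 2 tubule classes and the 3 leukocyte classes, and the naive points of T and B cells rest on 0 or 1 UMI in 13 to 21 cells and give no level.

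Of the selectins, Sele was seen almost only in grafts. Of Sele, naive endothelium held 0 and 1 UMI, against 13 and 11 in the rejecting pair and 42 and 25 in the tolerized pair, which is 20.4 and 33.2 CPM in rejecting and 24.1 and 15.6 in tolerized endothelium. Against the pooled naive kidneys the ratio was 40.4 (95% exact interval 6.59 to 1663, counting error only) for rejecting and 32.6 (5.66 to 1309) for tolerized endothelium. Both passed edgeR (adjusted p = 0.00459 and 0.00668), but the gene entered the test only through the grafts and had to differ from naive. The tolerized call was lost without naive kidney 1 (adjusted p = 0.0735) or without naive kidney 2 (adjusted p = 0.0633). The rejecting and tolerized values overlapped, with a pooled ratio of tolerized to rejecting of 0.807 (0.4998 to 1.35). Of the 108 graft UMIs of Sele, 91 lay in endothelium.

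Cells with Sele mostly also held Icam1. This was so for 7 of 8 and 3 of 5 cells with Sele in rejecting kidneys and 9 of 11 and 8 of 9 in tolerized kidneys. Among the other endothelial cells Icam1 was found in 31 of 87 and 17 of 38, and in 91 of 197 and 74 of 205. The cells with Sele were deeper, with medians of 8122 to 12555 UMIs against 4668 to 6727 in the others, and the part of depth in this overlap was not tested.

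Selp and Ackr1 were near or at the limit of detection in endothelium. Selp had 0 and 0 UMIs in naive, 2 and 0 in the rejecting pair and 5 and 8 in the tolerized pair, too few for the filter, and 7 of the 8 in tolerized kidney 2 lay in 1 cell. No fold is given, since that cell holds 7 of the 13 tolerized UMIs. Leukocytes of the grafts, a far larger class, held 37 Selp UMIs and endothelium 15. The mean leukocyte level was 0.273 CPM in rejecting and 0.432 in tolerized kidneys, below the 1.57 and 3.93 of endothelium. All these levels rest on few UMIs. In cells with 2 or more platelet markers lay 1 graft UMI of Selp. Ackr1 had 0 UMIs in all 1057 endothelial cells, which allows a share of up to 0.284% of cells with a UMI and 0.505 CPM. All 18 UMIs of Ackr1 lay in grafts, 17 in leukocytes and 1 in a cell with endothelial genes and Ptprc. The graft leukocytes held 0.0731 to 0.261 CPM, below the 4.71 and 5.09 CPM that 3 UMIs would weigh in the few naive leukocytes, so the levels of Ackr1 in them cannot be set side by side. Ackr1 overlaps Cadm3 on the same strand, so the source of reads in the overlap is uncertain. Both genes are known from venules, and no difference between groups was detectable in either at this depth.

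Genes around the members were read in the same endothelial cells from lists of their pathways. Of 10 tested genes of the VEGF and angiopoietin list, 2 rose and 2 fell in rejecting against naive endothelium (15.8% of all genes tested were called in either direction, and the median log2 fold change was -0.32 against -0.000926 for all genes). The VEGF co-receptor Nrp1 fell from 1902 and 1572 CPM to 629 and 338 (-1.87, adjusted p = 0.00407) and was 617 and 585 in tolerized endothelium (-1.54, adjusted p = 0.0129). Its relative Nrp2, at 21.2 and 18.2 in naive, rose to 72.3 and 103 in rejecting (2.07, adjusted p = 0.0129) and 90.5 and 38.7 in tolerized endothelium (1.69, adjusted p = 0.0326). Angpt2, the Tie2 ligand that loosens vessels, rose in rejecting kidneys from 5.31 and 5.7 to 20.4 and 78.4 CPM (2.95, adjusted p = 0.0248), and tolerized endothelium held 20.6 and 9.37 (1.41, adjusted p = 0.255). Its naive values, 4 and 5 UMIs, lay under the filter, so Angpt2 entered the test only through grafts. The ligand Vegfa fell in rejecting kidneys from 54.4 and 39.9 to 9.43 and 12.1 (-2.20, adjusted p = 0.0143) and was not called in tolerized endothelium. The proximal tubule and distal nephron markers given above were also lowest in the rejecting pair. Both rejecting values of Vegfa lay under the filter on low counts, so their order within that pair is not read. The part of these markers in the Vegfa values was not tested.

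Of the 11 tested adhesion and transmigration genes 2 rose in rejecting endothelium, Vcam1 and Cd34, and in edgeR 0 passed in tolerized endothelium, with 2, Vcam1 and Jam2, at an unadjusted p under 0.05 (medians 0.09 and -0.11). With 15.8% and 9.88% of all genes called in these comparisons, neither count sets the list apart. Vcam1, the ligand of the integrin with the alpha 4 chain, measured 109 and 47.9 CPM in naive, 395 and 486 in the rejecting pair and 92.8 and 309 in the tolerized pair. Rejecting endothelium was higher than naive by 2.46 (SE 0.555, adjusted p = 0.016), tolerized by 1.39 (SE 0.539, adjusted p = 0.131), and tolerized kidney 1 lay within the naive range. Of 12 tested cytokine-induced genes 4 rose in rejecting and 3 in tolerized endothelium, with medians of 0.98 and 0.92 (7.86% and 5.72% of all genes were called higher). Irf1, a transcription factor induced by interferon gamma, went from 82.3 and 52.4 CPM to 305 and 265 in rejecting (2.05, adjusted p = 0.0013) and 242 and 220.5 in tolerized kidneys (1.78, adjusted p = 0.00304). The chemokine Cxcl9 had 0 UMIs in both naive kidneys and measured 660 and 434 in the rejecting pair and 249 and 179 in the tolerized pair. Cxcl10 measured 74.3 and 1.14 CPM in naive, 300.2 and 338 in the rejecting pair and 235 and 319 in the tolerized pair. It passed edgeR in both (adjusted p = 0.026 and 0.0397). The rise of this list was not particular to endothelium. In proximal tubule cells 11 of 13 tested genes rose in rejecting and 8 of 13 in tolerized kidneys. Their medians were 2.77 and 2.46, where 18.3% and 13.9% of all genes were called higher. Vcam1 there measured 2.35 and 2.04 CPM in naive, 78.8 and 61.5 in the rejecting pair and 39.7 and 18.6 in the tolerized pair.

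Among 20 endothelial identity genes 4 rose (Aplnr, Cd34, Robo4 and Igfbp3) and 1 fell (Sox17) in rejecting kidneys, while Aplnr rose and Sox17 fell in tolerized kidneys and 18 did not pass. Of all genes 15.8% and 9.88% were called in these comparisons, so the counts do not set the list apart. Aplnr, the apelin receptor of sprouting vessels, went from 2.65 and 1.14 CPM to 53.4 and 66.4 in the rejecting pair and 43.5 and 13.1 in the tolerized pair, but its naive values of 2 and 1 UMIs lay under the filter, so it had to differ. Of the 4 glomerular genes, 3 fell in both kinds of graft, namely Lpl, Pi16 and Sost. Lpl fell from 390 and 448 CPM to 9.43 and 6.03 in rejecting (-5.69, adjusted p = 4.1e-05) and 43 and 56.2 in tolerized endothelium (-3.08, adjusted p = 0.000128). It was also the only one of these listed genes called between tolerized and rejecting endothelium (2.61, SE 0.415, adjusted p = 0.0298), in a comparison that called 0.59% of genes and, in edgeR, 0 of the 8 tested members, of which 1, Plvap, had an unadjusted p under 0.05. With the gate of at least 3 markers edgeR called 0 genes there. Of the arterial genes Sox17 and Fbln5 fell in both kinds of graft. Of the 2 capillary genes tested, Igfbp3 and Rgcc both rose in rejecting endothelium and neither passed in tolerized endothelium. Of the 4 venous genes Vcam1 alone rose in rejecting endothelium, as did Top2a of the 2 cycling genes, and both missed the threshold in tolerized endothelium. The 4 lymphatic markers did not pass the filter on low counts. Of the listed genes called, Aplnr, Angpt2, Cxcl9 and Top2a lay under the filter in both naive kidneys and Vegfa, Lpl and Sost in both rejecting kidneys (Sost in both tolerized ones too), so each was tested only through the groups where it was higher.

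On the leukocyte side, the ligands of the members were measured in graft leukocytes, and 0 of the 10 differed between tolerized and rejecting kidneys in edgeR, with 2, Itgb1 and Itga4, at an unadjusted p under 0.05. That comparison called 0 of all 14210 genes in edgeR, so it says nothing particular to the ligands. Itgb2, the beta 2 integrin chain that pairs with Itgal to bind ICAM-1, measured 217 and 209 CPM in rejecting and 210.4 and 169 in tolerized leukocytes. Itgal measured 146 and 94.4 in the rejecting pair and 132 and 98.3 in the tolerized pair. Selplg, the ligand of the selectins, measured 192 and 241 in the rejecting pair and 197 and 169.8 in the tolerized pair. The rejecting and tolerized pairs of Itgb2, Itgal and Selplg overlapped. Itgb1, which pairs with Itga4 to bind VCAM-1, had the lowest p of the 10, at 322 and 338 in the rejecting pair and 213 and 207 in the tolerized pair (-0.62, SE 0.196, adjusted p = 0.544).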

How the data were processed

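Whole-kidney suspensions of 6 kidneys, 1 library each, were profiled with 10x Genomics chemistry. The authors ran bcl2fastq and Cell Ranger against mm10, and the deposited values are raw UMI counts per gene and barcode, not normalised. A barcode was kept from 500 UMIs and 250 genes upwards if no more than 50% of its UMIs were mitochondrial, and the cells with the highest Scrublet scores (scanpy 1.11.5, 0.8% of cells per 1000 barcodes) were removed as doublets, leaving 5608 to 10483 cells a kidney. Classes were set by markers. Leukocytes had a UMI of Ptprc and fewer than 2 of the 4 endothelial gate genes. Proximal tubule cells had at least 2 of Lrp2, Slc34a1, Slc5a12, Slc13a3 and Slc22a6, and distal nephron cells at least 2 of 8 such markers. Both of these classes held no UMI of Ptprc or of any of the 4 gate genes. T cells, macrophages or monocytes and B cells had at least 2 of their own markers.

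The sums of counts over each class in each kidney passed through filterByExpr, were scaled by TMM and were fitted with edgeR 4.0.16 (quasi-likelihood test, R 4.3.3), with all 6 kidneys in 1 fit. Leukocytes were fitted on the 4 grafts. Classes were compared with kidney as a block, without the genes that set the classes. P-values were adjusted over all genes tested (Benjamini-Hochberg) and called under 0.05. Shares of cells were compared by an exact permutation test. Levels are UMIs per 1000000 UMIs of the class (CPM), ratios of low counts have 95% exact intervals, and the floor is 3 UMIs. Intervals and floors cover counting error only. The fits were checked on simulated data with a fixed spread between kidneys. For rejecting against naive endothelium, 15 of 62 genes changed 2-fold and 60 of 69 changed 4-fold were recovered. A change of 2-fold or less can thus go uncalled. The members and gene lists (endothelial identity, VEGF and angiopoietin, adhesion, leukocyte ligands, cytokine-induced, vessel segments) were chosen with earlier results of these data known. All 10 members are named whatever their values, and of each list those that passed, up to 5 per comparison. Alternatives were DESeq2 1.42.0, its size factors, no filter, a replicate block, other gates, cell filters, doublets kept, only the groups compared and leaving out each kidney. The difference of differences, the gate after thinning and the crossed block were added after seeing the data. Coordinates are from GENCODE M21 on GRCm38 and promoter sequences from RefSeq.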

Additional observations from a re-analysis of the deposited data

Results flagged for a closer look

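Cells with at least 2 of the 4 endothelial gate genes and a UMI of Ptprc were left out of endothelium and of leukocytes. There were 27 and 11 of them in the rejecting pair and 12 and 11 in the tolerized pair, against 1 and 0 in naive kidneys. They made up 0.258%, 0.146%, 0.134% and 0.172% of kept cells in these 4 grafts, against 0.015% and 0% in naive kidneys (0 of 5608 cells allows up to 0.0658%, the exact upper 95% bound). They lay outside the endothelium compared here, and naive kidneys held far fewer cells with Ptprc.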

How the results depend on the processing

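Leaving out 1 kidney gave 2 to 3 members called in endothelium for rejecting against naive (3 with all kidneys), 0 to 3 for tolerized against naive (2) and 0 to 1 for tolerized against rejecting (0), where DESeq2 and edgeR without the filter each called 1, Plvap. In proximal tubule, leaving out 1 kidney gave 1 to 2 members called in each comparison with naive (2 with all kidneys). It was 1 in both with at most 20% mitochondrial UMIs and with only the 2 groups in the fit, and 1 for rejecting against naive with a replicate block or a crossed replicate block in such a fit. Same-numbered naive and rejecting kidneys deviated oppositely there (r = -0.211), and the crossed block called 4783 genes against 4409 with the block as numbered. The difference in the endothelial share between rejecting and naive kidneys was -3.32 percentage points, and -3.56 with doublets kept, -8.71 at 20% mitochondrial UMIs, -1.93 with Cdh5 and Egfl7, -2.58 with 3 of 4 gate genes, -2.23 among cells without Ptprc, -2.43 with the gate after thinning and -3.48 to -3.15 without 1 kidney. Between tolerized and naive kidneys it was -1.22, and -5.79, -0.256 and, reversed, 0.469 at 20% mitochondrial UMIs, with Cdh5 and Egfl7 and without Ptprc, and -1.74 to -0.707 without 1 kidney. Between tolerized and rejecting kidneys it was 2.09, and 2.92 at 20% mitochondrial UMIs and 1.58 to 2.61 without 1 kidney. Kidneys with the same number did not deviate together in endothelium (r = -0.0608 to 0.0591 over genes), and although the kidneys were processed in separate experiments, the sources used here do not say that the replicate number marks the experiment. The replicate block called 3, 3 and 0 members in the 3 comparisons and 113 genes in place of 51 between tolerized and rejecting. Genes called by edgeR, DESeq2 and edgeR without the filter numbered 1369, 895 and 2058 for rejecting against naive, 854, 494 and 1560 for tolerized against naive, and 51, 98 and 447 between grafts, where other gates and cell filters gave 0 to 54. Without 1 kidney the counts by edgeR ran from 365 (without naive 2) to 1662, from 122 (without naive 2) to 1098 and from 16 (without either naive kidney) to 179 (without tolerized 1). Between grafts the 0 calls of edgeR became 102 in proximal tubule and 213 in leukocytes with DESeq2, and 532 and 1 without the filter. The causes were not tested. Of 284 values of single members without 1 kidney 265 kept their side of the threshold, as did 470 of 478 under other alternatives. Depth limits Sele, Selp and Ackr1, which had at most 42 UMIs in a kidney's endothelium.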
